A study of Mus musculus with 12 samples.

Results

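The genes described here encode the axoneme of motile cilia, its dynein motors and the factors that switch its genes on. Members were taken by symbol from a list of 45 names covering dynein arms, radial spokes, the central pair, assembly factors and regulators. Of these, 42 were found among the 49585 genes of the count table, and all 42 were among the 18556 genes with enough counts to test. The 3 other names were found under older symbols: Dnai1 as Dnaic1, Dnai2 as Dnaic2 and Cfap65 as Ccdc108. They stand outside the counts of 42 and are given separately.

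Poly(A) RNA of the whole lung was sequenced from C57BL/6J mice that carried an MO4 melanoma under the skin, so every group, controls included, was tumour-bearing. The young anti-PD-1 group (2 months old) and the aged anti-PD-1 group (22 months) were injected intraperitoneally with an antibody against PD-1, a receptor that restrains activated T cells. The aged control group (22 months) received an isotype-matched rat antibody. The combination group (22 months) received anti-PD-1 and anti-IL-21R, an antibody to the receptor of IL-21, a cytokine made largely by CD4 T cells. Injections of anti-PD-1 or control antibody were on days 3, 7 and 11 after inoculation; the labels do not give the days of the receptor antibody. No group of young mice on control antibody was analysed here, so age can be compared only under anti-PD-1. Each group had 3 libraries, with 16021877 to 22058620 counted reads per library. Single members had 66 to 16034 reads in a library. Whether libraries of a group come from separate mice is not in the labels. The p-values therefore measure the spread between these samples, which may be technical. The lung label matched the markers: alveolar type 2 genes summed to between 15069 and 28434 CPM (counts per 1e6 reads, TMM scaled) in each library. Mitochondrial transcripts took 6.05% to 14.9% of the reads, with the 2 highest shares in the combination group.

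A motile cilium beats because dynein motors, held in outer and inner arms on microtubule doublets, slide the doublets against each other. Radial spokes and the central apparatus pass signals to the arms, the nexin-dynein regulatory complex links neighbouring doublets, and tektins and other inner proteins stiffen the doublet wall. In the lung these genes are known mainly from multiciliated cells of the conducting airways, which clear mucus. The transcription factors FOXJ1 and RFX3 are known regulators of them. In whole lung, fewer multiciliated cells, less RNA per multiciliated cell and less of the same RNA from other cells cannot be told apart.

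Because RFX and forkhead factors are known regulators of these genes, promoter windows were searched for their motifs. RefSeq (GRCm38.p6) gave 41 windows, from 250 bases before to 50 after a start, for 35 of the 42 members. The RFX core letters GTTGCC, on either strand, was found in 18 of the 41 windows (43.9%), against 12.5% of all 32851 windows. The paired form, GTTNCC and GGNAAC separated by 2 bases, was found in 0 of 41, against 0.451% of all windows. Only this exact pattern and spacing was searched. With so low a share over all windows, 0 of 41 does not show that the members lack paired sites. The forkhead letters TGTTTAC or TGTTTGT, on either strand, were found in 3 of 41 (7.32%), against 9.95%. These matches describe letters in a window and are not binding data. Shown are the 250 bases upstream of the start for the 3 members that held GTTGCC or its reverse complement 2 times and ranked first in their role. Capitals mark these letters. Ties within a role went to the first symbol in the alphabet. Spag16 of the central apparatus and Tekt2 of the doublet wall also held them 2 times and are not shown for that reason. Cfap74 encodes a central apparatus protein, at chr4:155408990-155409239 on the plus strand.
Cfap74: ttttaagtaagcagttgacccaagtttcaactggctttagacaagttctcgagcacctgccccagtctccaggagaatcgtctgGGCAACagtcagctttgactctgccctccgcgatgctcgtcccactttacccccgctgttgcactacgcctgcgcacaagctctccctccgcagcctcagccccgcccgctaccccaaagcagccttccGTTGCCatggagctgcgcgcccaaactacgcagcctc
Tekt1 encodes a tektin of the doublet wall, at chr11:72361883-72362132 on the minus strand.
Tekt1: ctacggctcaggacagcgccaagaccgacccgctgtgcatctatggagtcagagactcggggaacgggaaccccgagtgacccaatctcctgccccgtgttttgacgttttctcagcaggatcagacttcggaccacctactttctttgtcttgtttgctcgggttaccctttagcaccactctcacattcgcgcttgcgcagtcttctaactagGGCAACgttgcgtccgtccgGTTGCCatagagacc
Cfap44 encodes a part of the tether that anchors an inner dynein arm, at chr16:44394549-44394798 on the plus strand.
Cfap44: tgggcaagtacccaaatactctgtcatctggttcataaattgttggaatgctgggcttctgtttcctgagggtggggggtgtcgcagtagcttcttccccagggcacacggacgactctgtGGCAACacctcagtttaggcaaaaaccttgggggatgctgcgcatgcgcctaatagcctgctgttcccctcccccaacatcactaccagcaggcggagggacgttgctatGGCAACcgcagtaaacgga
Of these 3, Tekt1 fell in aged mice on anti-PD-1 against control, as given below with its values, and Cfap74 and Cfap44 did not pass the test in any comparison.

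Across the 42 members, levels were highest on average in aged control lungs and lowest in aged lungs on anti-PD-1. The aged control group had the highest mean of the 4 groups for 30 members and the lowest for 0. The aged anti-PD-1 group had the lowest mean for 25 members, the combination group for 13 and the young group for 4. Summed over members, the level was 1900 ± 108 CPM in aged control, 1802 ± 90.0 in young anti-PD-1, 1612 ± 190 in the combination and 1371 ± 227 in aged anti-PD-1 (SD, n = 3 libraries each). The sum is led by Tppp3, and without it the levels were 1265 ± 89.1, 1073 ± 93.7, 1094 ± 136 and 980 ± 177 CPM in the same order. A member is called below where its adjusted p from edgeR's two-sided quasi-likelihood test, adjusted by Benjamini-Hochberg across every tested gene, was under 0.05. Tested for any difference among the 4 groups, 8 of 42 members were called: Tppp3, Drc1, Ccdc153, Rsph1, Cfap126, Cfap52, Tekt1 and Ccdc113. That is no larger a share than in the background, since 22.6% of all genes tested were called.

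**Figure D1:**
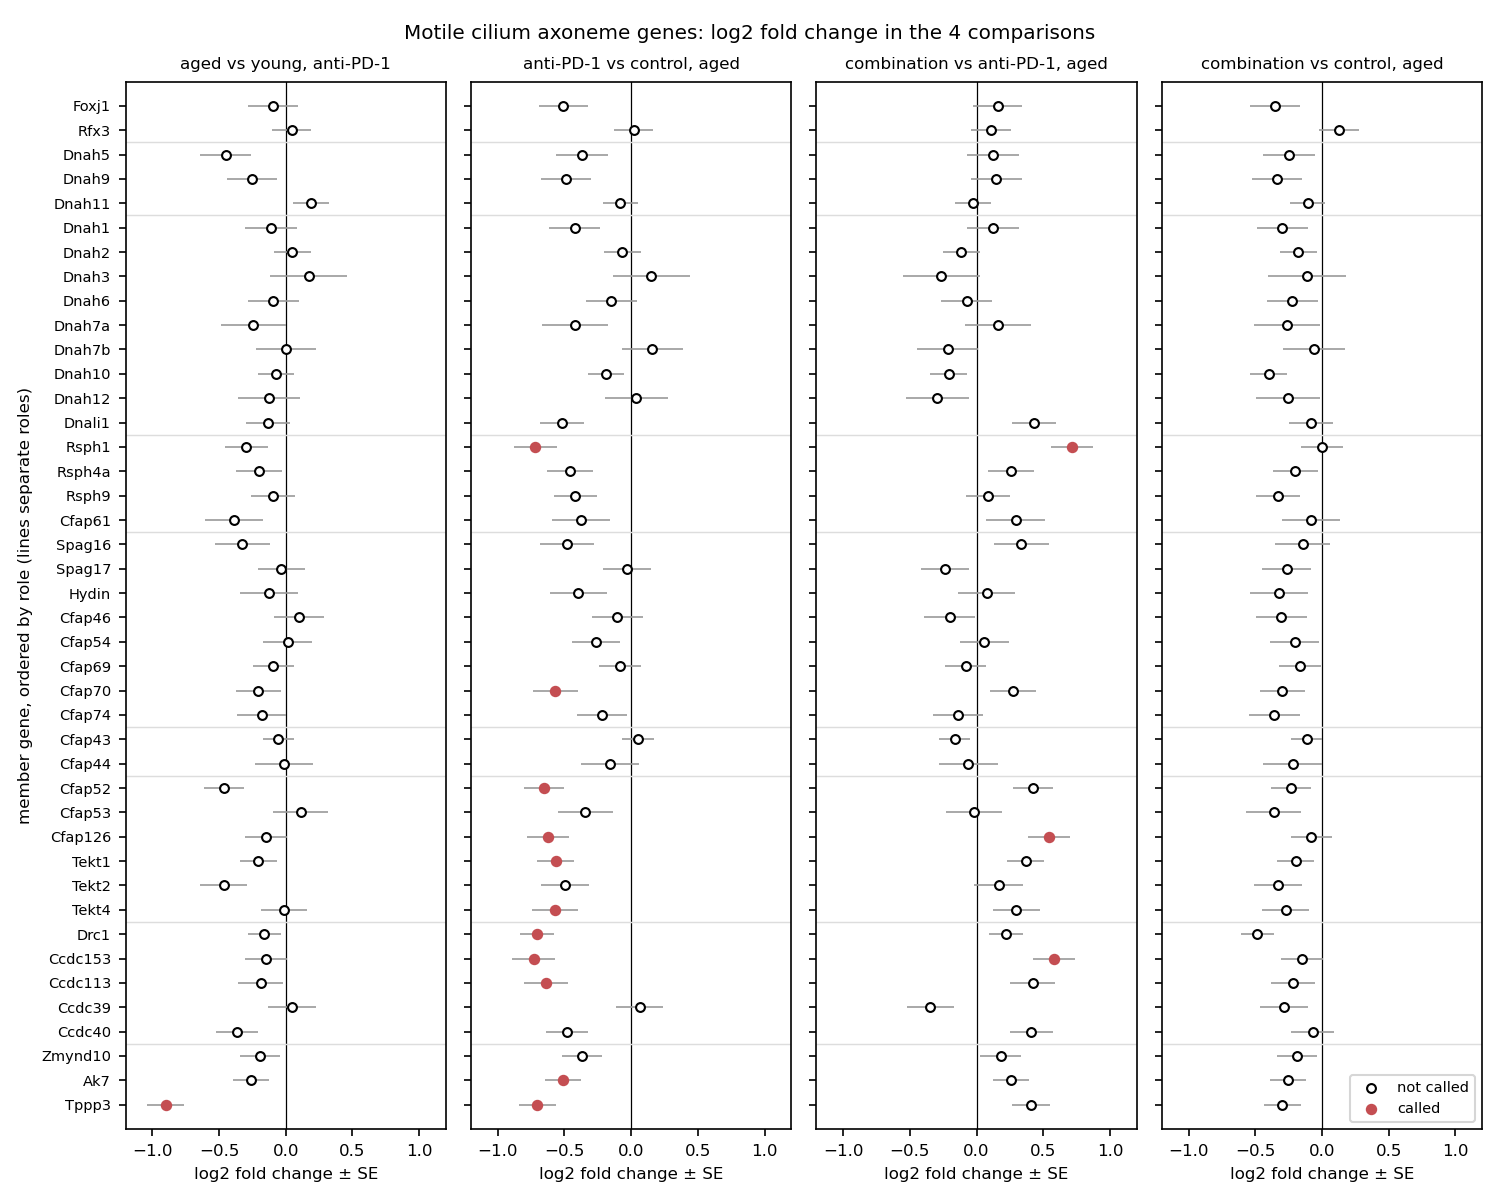
Log2 fold change ± SE of the 42 members (rows, by role) in 4 comparisons of 3 libraries against 3; red points are called. For anti-PD-1 against control in aged mice, 36 of the 42 points lie left of zero and 11 are called, while no point is called for the combination against control.

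In aged mice, anti-PD-1 lungs had less of many ciliary transcripts than control lungs. Of the 42 members 11 fell and 0 rose (26.2% called), where 5.58% of all genes tested fell, 5.34% rose and 10.9% were called in either direction. At an unadjusted p under 0.05, 21 members were lower and 0 higher, and DESeq2 called 13 lower and 0 higher. Of all 18556 genes tested, 2819 were lower and 2551 higher at the unadjusted p, and DESeq2 called 1521 lower and 1451 higher. The median log2 fold change of the members was -0.41, against -0.02 over all genes, and 36 of 42 values were negative. Library ranges did not overlap for 16 members, all lower, where the background is 16.4% for lower and 16.1% for higher. The largest of the 11 changes was 1.66-fold, so no member changed by as much as 2-fold. The doublet wall fell in 4 of 6 members, the nexin-dynein and ruler group in 3 of 5, the group of assembly and other factors in 2 of 3, the radial spoke in 1 of 4 and the central apparatus in 1 of 8. The dynein arms (12 members), the inner arm tether (2) and the transcription factors (2) had no called member.

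The number of members called depended on single libraries, as did the number called over all genes. Library 3 of aged anti-PD-1 had the lowest level of its group for 42 of 42 members, and of all 12 libraries for 34. Without it, 2 members were called and the median was -0.23. Over all genes, the number called lower went from 1035 to 353 in that fit. Without the second aged control library, which had the highest level of the 12 for 20 members, 2 were called as well. Over all genes, 303 were then called lower. How often these libraries were lowest or highest over all genes was not counted. Mitochondrial transcripts took 7.88%, 8.31% and 11.9% of reads in aged anti-PD-1 libraries 1 to 3 and 7.32%, 10.4% and 7.97% in the control libraries; the part of this in the result was not tested. Drc1 was called under each of the 21 alternatives run, and Tppp3 under 20 of them. The exception was a fit that left out both library 3 of aged anti-PD-1 and library 1 of aged control, where its adjusted p was 0.0509.

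Drc1 encodes a scaffold of the nexin-dynein regulatory complex (chromosome 5, 30281388 to 30366695, mm10). It stood at 28.8, 33.1 and 28.5 CPM in the aged control libraries, 19.2, 20.4 and 15.8 in aged anti-PD-1, 20.97, 20.4 and 23.3 in the combination and 18.3, 22.4 and 21.3 in young anti-PD-1. The 3 control libraries lay above the other 9. Drc1 fell by 0.71 ± 0.12 on the log2 scale under anti-PD-1 in aged mice (adjusted p = 0.00675, edgeR quasi-likelihood). Against control, the combination value was -0.48 ± 0.13, with no overlap of the libraries but an adjusted p of 0.386.

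Ccdc153, which encodes a subunit of the same complex, had the second highest level per kilobase of exon among the members (61.6 CPM per kb). Its libraries stood at 165, 172 and 138 CPM in aged control, 91.3, 112 and 82.3 in aged anti-PD-1, 108, 164 and 155 in the combination and 94.4, 114 and 108 in young anti-PD-1. Control and aged anti-PD-1 did not overlap, whereas the first combination library lay within the anti-PD-1 range. Ccdc153 fell by 0.73 ± 0.16 on the log2 scale under anti-PD-1 in aged mice (adjusted p = 0.0145, edgeR) and rose by 0.58 ± 0.16 when anti-IL-21R was added (adjusted p = 0.0360). The fall kept its call under 18 of 21 alternatives and the rise under 12 of 21.

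Ccdc113, a coiled-coil protein of the axoneme, stood at 28.7, 30.1 and 23.2 CPM in aged control, 17.7, 20.8 and 14.2 in aged anti-PD-1, 19.6, 25.6 and 25.3 in the combination and 16.5, 21.9 and 21.6 in young anti-PD-1. The control range lay above the aged anti-PD-1 range. Ccdc113 fell by 0.64 ± 0.17 on the log2 scale (adjusted p = 0.0283, edgeR). The rulers that set the axonemal repeat, Ccdc39 and Ccdc40, did not pass the test. Ccdc39 stood at 24.6, 33.0 and 31.2 CPM in aged control, 36.2, 32.5 and 24.0 in aged anti-PD-1, 21.9, 20.9 and 30.3 in the combination and 26.5, 33.9 and 29.4 in young anti-PD-1, with all groups overlapping. Its log2 fold change under anti-PD-1 was 0.06 ± 0.18 (adjusted p = 0.845, edgeR). Ttc14, on the opposite strand, overlaps 16.9% of the Ccdc39 exon bases, and the strand setting of the counting is not given in the sources used here. Ccdc40 had a log2 fold change of -0.48 ± 0.16 with ranges that did not overlap, an adjusted p of 0.0665 in edgeR and 0.0420 in DESeq2.

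In the radial spoke, Rsph1 (chromosome 17, 31255019 to 31277356) encodes a protein of the spoke head. It stood at 52.1, 55.3 and 44.4 CPM in aged control, 29.9, 35.8 and 26.7 in aged anti-PD-1, 37.8, 61.8 and 52.4 in the combination and 37.0, 39.6 and 36.7 in young anti-PD-1. The aged anti-PD-1 libraries lay below all 9 others. Rsph1 fell by 0.72 ± 0.16 on the log2 scale under anti-PD-1 in aged mice (adjusted p = 0.0157, edgeR) and rose by 0.72 ± 0.16 with the combination (adjusted p = 0.0171). The other spoke members, Rsph4a, Rsph9 and Cfap61, had log2 fold changes of -0.46 ± 0.17, -0.42 ± 0.16 and -0.38 ± 0.22 under anti-PD-1 and were not called.

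Among doublet wall genes, Cfap126 encodes Flattop, a protein inside the doublet that also positions basal bodies. Its libraries stood at 42.4, 45.4 and 37.3 CPM in aged control, 25.6, 33.8 and 21.7 in aged anti-PD-1, 32.8, 44.9 and 40.8 in the combination and 27.4, 30.7 and 31.8 in young anti-PD-1. Anti-PD-1 and control did not overlap, and the second aged anti-PD-1 library lay just above the first combination library. Cfap126 fell by 0.62 ± 0.16 on the log2 scale under anti-PD-1 in aged mice (adjusted p = 0.0243, edgeR) and rose by 0.54 ± 0.16 with the combination (adjusted p = 0.0436). The fall kept its call under 15 of 21 alternatives and the rise under 11 of 21.

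Cfap52, another doublet wall gene, stood at 14.7, 20.03 and 13.9 CPM in aged control, 11.5, 9.70 and 9.62 in aged anti-PD-1, 12.5, 14.5 and 14.6 in the combination and 13.3, 15.2 and 14.1 in young anti-PD-1. The aged anti-PD-1 libraries were again below all 9 others. Cfap52 fell by 0.65 ± 0.15 on the log2 scale against control (adjusted p = 0.0188, edgeR). It is the only one of the 11 called members with exons that overlap a gene on the opposite strand (8.36% of its exon bases).

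The tektins are filament proteins of the doublet wall. Tekt1 stood at 24.9, 25.8 and 23.6 CPM in aged control, 17.3, 18.7 and 14.2 in aged anti-PD-1, 17.3, 24.5 and 23.2 in the combination and 19.4, 19.9 and 18.6 in young anti-PD-1. Control libraries lay above those of both groups given only anti-PD-1. Tekt1 fell by 0.57 ± 0.14 on the log2 scale in aged anti-PD-1 against control (adjusted p = 0.0231, edgeR). Tekt4 stood at 17.5, 18.9 and 14.96 CPM in aged control, 10.1, 14.5 and 9.97 in aged anti-PD-1, 11.7, 15.03 and 15.8 in the combination and 10.2, 13.1 and 11.6 in young anti-PD-1. Its second aged anti-PD-1 library came close to the control range. Tekt4 fell by 0.57 ± 0.17 on the log2 scale, at the edge of the threshold (adjusted p = 0.0495, edgeR), and kept the call under 7 of 21 alternatives. Tekt2 had a log2 fold change of -0.50 ± 0.18 and was not called (adjusted p = 0.0856).

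Ak7, an adenylate kinase of cilia, stood at 47.3, 43.9 and 40.9 CPM in aged control, 34.1, 35.2 and 23.1 in aged anti-PD-1, 36.0, 34.9 and 39.8 in the combination and 35.9, 38.8 and 36.2 in young anti-PD-1. The control libraries were above all 9 others. Ak7 fell by 0.51 ± 0.14 on the log2 scale under anti-PD-1 in aged mice (adjusted p = 0.0298, edgeR). Zmynd10, which helps to assemble dynein arms in the cytoplasm, stood at 17.2, 18.1 and 16.4 CPM in aged control, 15.7, 14.0 and 10.3 in aged anti-PD-1, 13.6, 16.2 and 15.6 in the combination and 14.97, 16.8 and 14.0 in young anti-PD-1. Its aged control and anti-PD-1 ranges did not overlap, but with a log2 fold change of -0.37 ± 0.15 it was not called (adjusted p = 0.121).

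Tppp3, a tubulin-binding protein and a common marker of multiciliated cells, was the most abundant member per length, at 308 CPM per kb (chromosome 8, 105467493 to 105471526). It stood at 702, 642 and 564 CPM in aged control, 416, 421 and 333 in aged anti-PD-1, 439, 606 and 509 in the combination and 718, 683 and 786 in young anti-PD-1. The libraries of aged anti-PD-1 were below all 9 others. Tppp3 fell by 0.70 ± 0.14 on the log2 scale under anti-PD-1 in aged mice (adjusted p = 0.0104, edgeR).

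**Figure D2:**
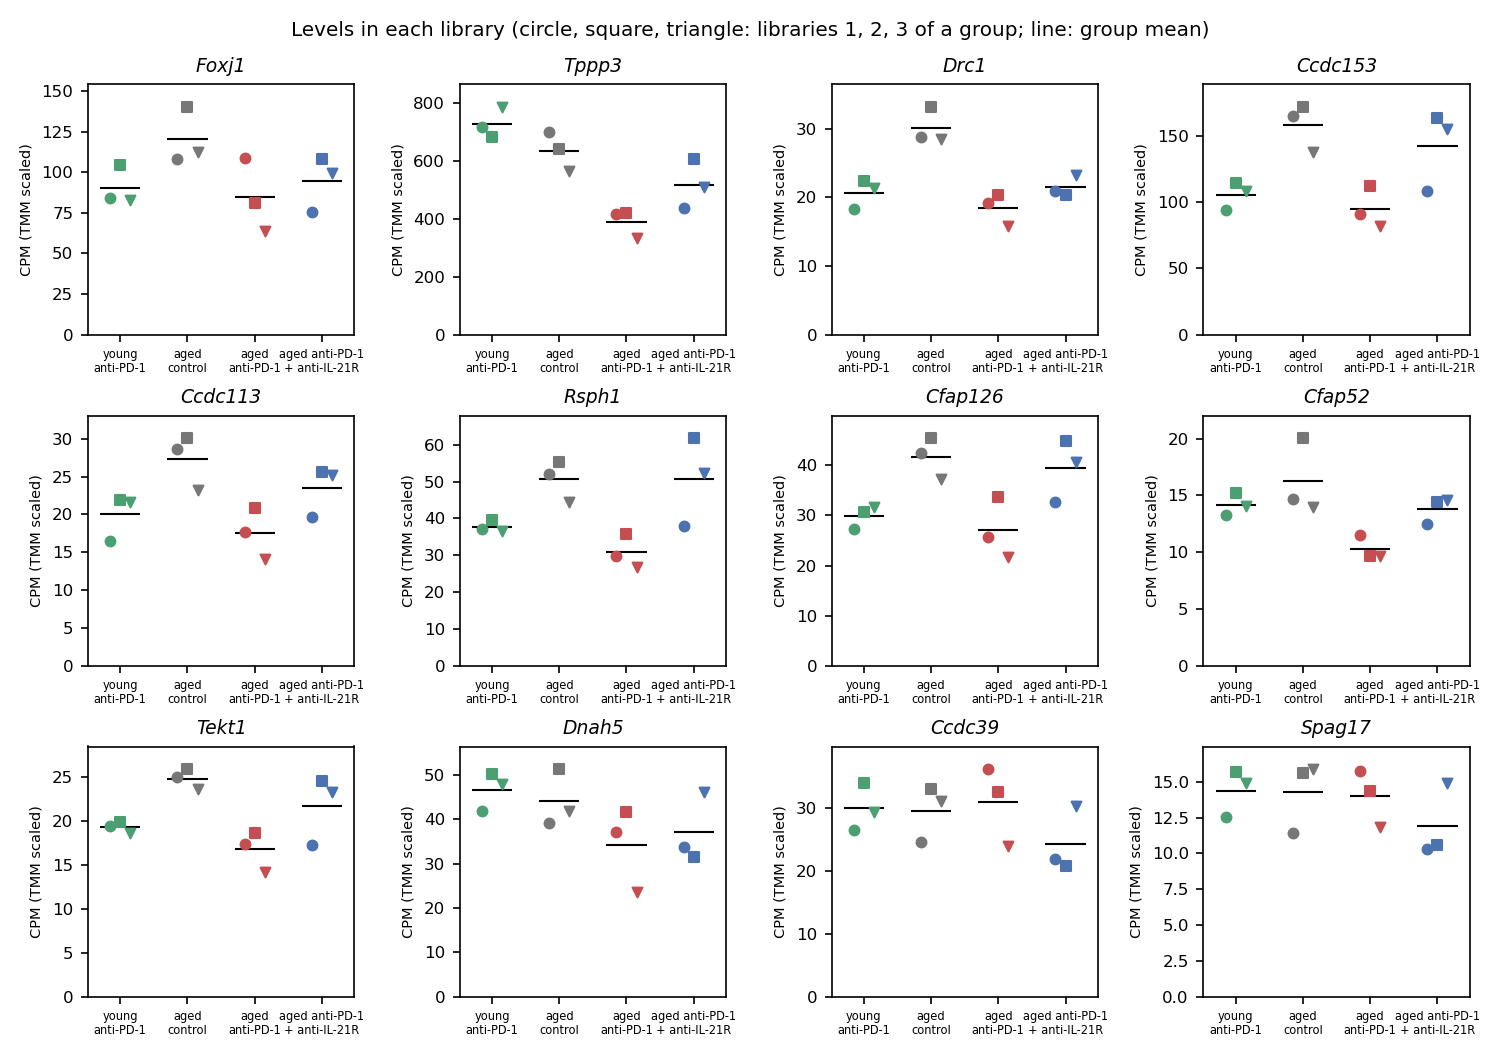
TMM-scaled CPM of 12 members in each library of the 4 groups (points) with group means (lines); axes start at 0. Aged anti-PD-1 libraries (red) lie below the aged control libraries (grey) for Drc1, Ccdc153, Ccdc113, Rsph1, Cfap126, Cfap52, Tekt1 and Tppp3, and overlap them for Foxj1, Dnah5, Ccdc39 and Spag17.

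The dynein motors themselves did not pass the test. The 11 heavy chain genes, the adenosine triphosphate-splitting subunits, had log2 fold changes from -0.49 to 0.16 under anti-PD-1 in aged mice, with a median of -0.15. By edgeR 0 of 11 were called, 2 had an unadjusted p under 0.05, and DESeq2 called 0. Of all 18556 genes tested, 10.9% were called in that comparison, and 2819 were lower and 2551 higher at the unadjusted p. With 11 genes, these counts do not set the heavy chains apart from that background. Dnah5, the outer arm motor, stood at 39.1, 51.3 and 41.9 CPM in aged control, 37.0, 41.6 and 23.6 in aged anti-PD-1, 33.8, 31.5 and 46.1 in the combination and 41.8, 50.2 and 47.9 in young anti-PD-1. Of aged anti-PD-1, only library 3 was below every control, combination and young library. The log2 fold change of Dnah5 was -0.37 ± 0.19 against control (adjusted p = 0.225, edgeR).

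Dnah9, its partner in the outer arm, stood at 24.8, 32.4 and 31.9 CPM in aged control, 25.7, 23.4 and 14.2 in aged anti-PD-1, 21.03, 22.3 and 27.1 in the combination and 24.0, 27.4 and 24.2 in young anti-PD-1. The ranges overlapped through the first library of each aged group, and the log2 fold change was -0.49 ± 0.19 (adjusted p = 0.104, edgeR). The inner arm chains Dnah3, Dnah7b and Dnah12 had the positive values, 0.15 ± 0.29, 0.16 ± 0.23 and 0.04 ± 0.23. Dnah7a and Dnah7b are close copies of each other and their reads may be split in error, so their separate values of -0.42 ± 0.24 and 0.16 ± 0.23 are uncertain. Dnali1, a light chain of the inner arm with a far shorter transcript, had -0.52 ± 0.16 with ranges that did not overlap; its adjusted p was 0.0590 in edgeR and 0.0334 in DESeq2.

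The outer arm intermediate chains, counted under older symbols, were not called either. Dnaic1 (Dnai1) stood at 12.7, 14.4 and 14.96 CPM in aged control, 10.7, 13.8 and 8.43 in aged anti-PD-1, 10.2, 11.8 and 10.6 in the combination and 11.1, 11.5 and 9.90 in young anti-PD-1. The control and aged anti-PD-1 ranges overlapped through one library, and the log2 fold change was -0.35 ± 0.16 (adjusted p = 0.169, edgeR). Dnaic2 (Dnai2) had -0.41 ± 0.14 (adjusted p = 0.0659) and Ccdc108 (Cfap65) 0.01 ± 0.17 (adjusted p = 0.986).

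In the central apparatus, Cfap70 was the only one of 8 members called in aged anti-PD-1 against control. That share of 12.5% is close to the 10.9% of all genes tested that were called in either direction. It stood at 14.6, 13.6 and 15.5 CPM in aged control, 10.1, 11.6 and 7.73 in aged anti-PD-1, 10.1, 10.9 and 14.6 in the combination and 11.0, 10.7 and 12.4 in young anti-PD-1. Its aged control libraries lay above both groups given only anti-PD-1, and one combination library reached the control range. Cfap70 fell by 0.57 ± 0.17 on the log2 scale (adjusted p = 0.0440, edgeR), a call kept under 9 of 21 alternatives.

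Hydin, a large protein of a central pair projection, stood at 15.8, 26.01 and 26.99 CPM in aged control, 19.7, 20.2 and 12.3 in aged anti-PD-1, 17.9, 16.4 and 20.8 in the combination and 16.5, 21.4 and 19.2 in young anti-PD-1. The first control library lay inside the anti-PD-1 range, and the log2 fold change was -0.40 ± 0.21 (adjusted p = 0.240, edgeR). Spag17, a central pair protein, stood at 11.4, 15.6 and 15.9 CPM in aged control, 15.7, 14.4 and 11.9 in aged anti-PD-1, 10.3, 10.6 and 14.9 in the combination and 12.5, 15.7 and 14.9 in young anti-PD-1. Its groups overlapped throughout, with -0.03 ± 0.18 under anti-PD-1 (adjusted p = 0.934). The inner arm tether genes Cfap43 and Cfap44 had 0.05 ± 0.12 and -0.16 ± 0.22.

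The transcription factors did not pass the test. Foxj1 stood at 108, 140 and 113 CPM in aged control, 108, 81.0 and 64.0 in aged anti-PD-1, 75.2, 108 and 99.8 in the combination and 84.0, 105 and 82.8 in young anti-PD-1. The aged control and aged anti-PD-1 ranges met at a single pair of libraries. The log2 fold change of Foxj1 was -0.51 ± 0.19 (adjusted p = 0.0931, edgeR). Rfx3 stood at 9.87, 12.8 and 12.3 CPM in aged control, 12.7, 13.0 and 9.77 in aged anti-PD-1, 12.4, 11.6 and 14.2 in the combination and 11.1, 11.3 and 11.9 in young anti-PD-1. Its groups overlapped throughout, with a log2 fold change of 0.02 ± 0.15 (adjusted p = 0.952).

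Within the members, the change under anti-PD-1 went with exon length, a pattern seen in these data and described without a test. The 21 members with the shorter exon length (1.29 to 7.06 kb) had a median log2 fold change of -0.52 and held 11 called members. The 21 longer ones (7.44 to 19.98 kb) had a median of -0.15 and held 0. Over all genes tested in the same length ranges the medians were -0.03 and 0.14, and 10.6% and 13.4% were called. The called members were 1.29 to 4.29 kb long, and 7 of the 31 members not called were no longer than that. With a smooth trend on exon length removed over all genes, the medians were -0.45 and -0.29, and 10 members were called, 7 of them from the 11.

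**Figure D3:**
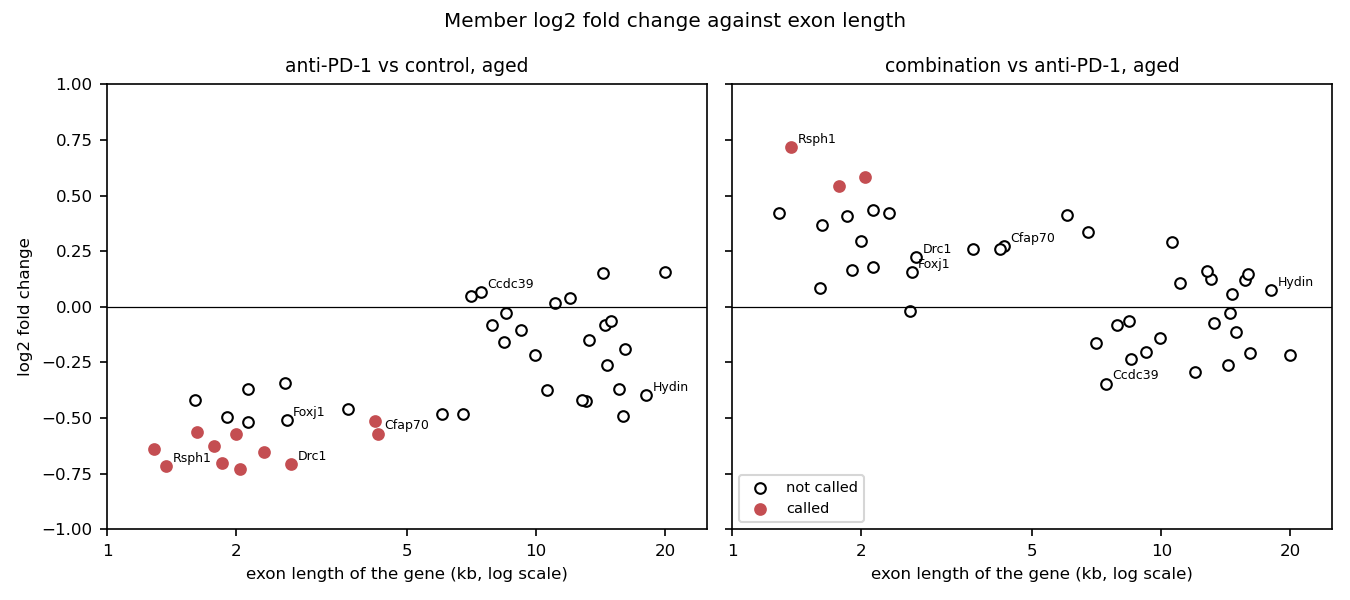
Log2 fold change of the 42 members against exon length (log axis), for anti-PD-1 against control (left) and the combination against anti-PD-1 (right) in aged mice; red points are called. On the left the 11 called members are 1.29 to 4.29 kb long, and members of 7.44 kb or more spread around a median of -0.15.

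When anti-IL-21R was added to anti-PD-1 in aged mice, 3 members rose and 0 fell: Rsph1, Ccdc153 and Cfap126, with the values given above. The share of 7.14% compares with 9.02% of all genes tested in either direction, 4.67% higher and 4.35% lower. At an unadjusted p under 0.05, 9 members were higher and 0 lower, and DESeq2 called 4 higher (with Tppp3 added) and 0 lower. Of all 18556 genes tested, 2451 were higher and 2454 lower at the unadjusted p, and DESeq2 called 1357 higher and 1171 lower. The median log2 fold change was 0.14, against -0.01 over all genes, and 27 of 42 values were positive. Ranges did not overlap for 4 members (Rsph1, Cfap52, Dnali1 and Tppp3), all higher, where the background is 15.7% higher and 16.5% lower. Of the other doublet wall members, Cfap52 was at 0.42 ± 0.15 (adjusted p = 0.0942, edgeR), Tekt1 at 0.37 ± 0.14 (0.108), Tekt4 at 0.30 ± 0.18 (0.304), Tekt2 at 0.16 ± 0.18 (0.603) and Cfap53 at -0.02 ± 0.21 (0.966), and 0 of them were called. Drc1 had 0.22 ± 0.13 (adjusted p = 0.284). Among heavy chains the values ran from -0.29 to 0.16, with 7 of 11 negative, 0 called, 0 with an unadjusted p under 0.05 and 0 called by DESeq2. By exon length, the medians were 0.30 for the shorter 21 members and -0.07 for the longer 21, where all genes in the same length ranges had 0.00 and -0.15. With the trend over exon length removed, they were 0.27 and 0.07, so the sign for the longer members turned.

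The comparison of the combination with aged anti-PD-1 uses the same aged anti-PD-1 libraries as the one before, so its values do not stand apart from those given there. With library 3 of aged anti-PD-1 left out, 0 members were called and the median was -0.03. With library 1 of aged anti-PD-1 or library 2 of the combination left out 0 were called, with library 3 of the combination or library 2 or 3 of the young group left out 1, and with library 1 of the combination left out 5. The number of all genes called higher changed too, from 866 to 496 without library 3 of aged anti-PD-1 and 273 without its library 1. It was 127 without library 2 of the combination, 661 without its library 3 and 743 without its library 1. Mitochondrial transcripts took 11.5%, 14.9% and 13.7% of reads in combination libraries 1 to 3, above 2 of the 3 aged anti-PD-1 libraries; their part in the result was not tested.

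Compared with aged control, the combination had 0 members called in either direction, and 0% of all genes tested were called. At an unadjusted p under 0.05 there were 2 lower members, Drc1 and Dnah10, and 0 higher, and DESeq2 called 0. Of all 18556 genes tested, 723 were lower and 505 higher at the unadjusted p, and DESeq2 called 34 lower and 34 higher. The members were still mostly below control: 40 of 42 values were negative, with a median log2 fold change of -0.23 against -0.01 over all genes. Ranges did not overlap for 9 members, all lower, where the background is 5.78% lower and 3.92% higher. Dnah10, an inner arm heavy chain, had the second largest decrease in this comparison after Drc1, at -0.40 ± 0.14 (adjusted p = 0.578, edgeR). Rsph1 had 0.00 ± 0.16 and Ccdc153 -0.15 ± 0.16.

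Under anti-PD-1, aged lungs differed from young lungs in 1 member. Tppp3 fell by 0.90 ± 0.14 on the log2 scale, or 1.87-fold, from 729 ± 52.4 to 390 ± 49.5 CPM (SD, n = 3; adjusted p = 0.00164, edgeR), and was called under each of 21 alternatives. The other 41 members were not called. The background is 15.3% of genes called, 8.09% higher and 7.16% lower. At an unadjusted p under 0.05, 5 members were lower and 0 higher. DESeq2 called 2 lower, Tppp3 and Cfap52, and 0 higher. Of all 18556 genes tested, 2643 were lower and 2835 higher at the unadjusted p, and DESeq2 called 1595 lower and 1866 higher. The median log2 fold change was -0.13, against -0.01 over all genes, and -0.01 with library 3 of aged anti-PD-1 left out. Ranges did not overlap for 5 members, Dnah5, Rsph1, Cfap52, Ak7 and Tppp3, all lower, where 19.9% of genes were lower and 19.7% higher in that way. Cfap52 had -0.46 ± 0.15 (adjusted p = 0.0540), Dnah5 -0.45 ± 0.19 (0.138), Tekt2 -0.47 ± 0.18 (0.0945) and Foxj1 -0.10 ± 0.19 (0.772, all edgeR).

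Other genes of the motile axoneme, listed apart from the members, had 8 of 33 lower and 0 higher in aged anti-PD-1 against control, with a median log2 fold change of -0.36. Of all genes tested, 5.58% were lower and 5.34% higher there. The lists here were read from the same libraries, so their values do not stand apart from those of the members. Examples are Nme5, a nucleoside diphosphate kinase family protein of radial spokes, at -0.75 ± 0.15 (adjusted p = 0.0112, edgeR), and Cfap77, a doublet wall protein, at -0.90 ± 0.19 (0.0139). Other markers of multiciliated cells had 8 of 18 lower and 0 higher, with a median of -0.56. Capsl was at -0.90 ± 0.15 (adjusted p = 0.00577) and Mlf1 at -0.71 ± 0.14 (0.00997), while the most abundant, Sec14l3, was not called at -0.32 ± 0.22 (0.367). Of dynein assembly and docking factors 1 of 15 was lower, of the programme that specifies multiciliated cells 1 of 10 (Rfx2, -0.61 ± 0.18, adjusted p = 0.0490), of intraflagellar transport 2 of 23 and of the BBSome 0 of 9. These called shares were 6.67%, 10%, 8.7% and 0%, against 10.9% of all genes called in either direction. In the combination against aged anti-PD-1, the other axoneme list had 4 of 33 higher and the other multiciliated list 3 of 18 higher and 1 lower. All genes tested had 4.67% higher and 4.35% lower in that comparison. Smooth muscle genes had 2 of 6 higher there, Acta2 at 0.59 ± 0.15 (adjusted p = 0.0290, edgeR) and Cnn1 at 0.73 ± 0.17 (0.0219), with a list median of 0.53. Their ranges did not overlap for 5 of 6, all higher, where the background is 15.7% higher and 16.5% lower. Club and secretory genes (median 0.39), mesothelial genes (0.44) and general epithelial genes (0.16) had 0 called in that comparison.

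Genes of other cell types moved in the same libraries, and their part in the members' result was not tested. In aged anti-PD-1 against control, 5.58% of all genes tested were lower and 5.34% higher. In aged anti-PD-1 against control, 2 of 15 club and secretory cell genes fell, Scgb3a1 by 1.09 ± 0.30 and Muc16 by 1.52 ± 0.33 on the log2 scale, with a list median of -0.51. The abundant club cell secretoglobin Scgb1a1 was not called at -0.41 ± 0.20 (adjusted p = 0.195, edgeR). General epithelial genes had 3 of 12 lower (median -0.45), mesothelial genes 6 of 7 (median -1.42) and smooth muscle genes 4 of 6 (median -0.78), with none of these higher. Krt19 stands in both the general epithelial and the mesothelial list. Of B and T cell genes 1 of 7 was higher, the B cell surface gene Ms4a1 at 0.91 ± 0.23 (adjusted p = 0.0261, edgeR), with a list median of 0.46 and 6 of 7 values positive. Germ cell genes of the testis, whose sperm tails share much of the axoneme, were near 0, with a summed level of 0.0519 to 0.851 CPM per library and none with enough counts to test. Alveolar type 2 genes had 0 of 9 called (median 0.07) and type 1 genes 0 of 8 (median -0.39). The summed CPM of club and secretory genes ran from 24133 to 35199 in aged control and from 18912 to 23166 in aged anti-PD-1, without overlap, and that of smooth muscle genes from 1118 to 1512 and from 716 to 918. Against young lungs, aged anti-PD-1 lungs had 9 of 9 alveolar type 2, 7 of 8 type 1 and 7 of 7 mesothelial genes lower. General epithelial genes had 8 of 12 lower, smooth muscle 4 of 6 and club and secretory 5 of 15. Of B and T cell genes 5 of 7 were higher, beside the 1 of 42 members lower. Other multiciliated markers had 3 of 18 lower, the multiciliated programme 2 of 10 and intraflagellar transport 2 of 23, with 0 higher in each. Other axoneme genes (33), dynein assembly and docking factors (15) and the BBSome (9) had 0 called. Of all genes tested, 7.16% were lower and 8.09% higher there.

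**Figure D4:**
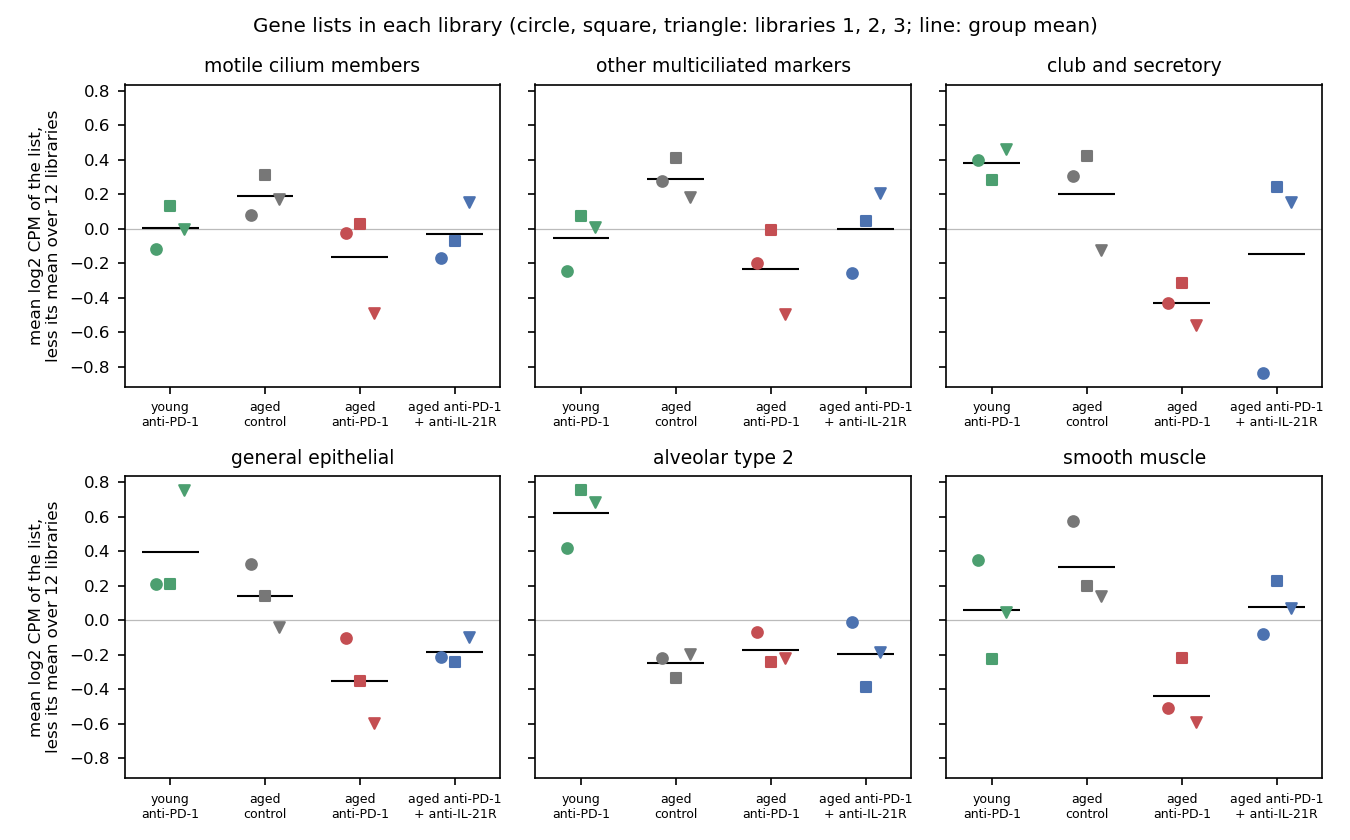
Mean log2 CPM of 6 gene lists in each library, less the list's mean over 12 libraries (points), with group means (lines). Library 3 of aged anti-PD-1 is lowest for the members, and aged anti-PD-1 libraries (red) lie below aged control (grey) for the members, multiciliated, club, epithelial and smooth muscle lists but not for alveolar type 2.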

How the data were processed

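Whole-lung poly(A) libraries were directional (NEBNext Ultra II), per the labels' protocols. Per the submitters' processing notes the genome was mm10 and the tools were featureCounts 1.6.3, HISAT2, bcl2fastq 1.8.4 and Trimmomatic; the options, strand setting and annotation release are not given in the sources used here. The deposited values are raw counts per gene, with no normalization by the authors.

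Genes were kept with filterByExpr by group (at least 10 counts, and 15 in total) and scaled by TMM. One edgeR 4.0.16 quasi-likelihood model (robust, R 4.3.3, limma 3.58.1) with 4 group means was fitted to all 12 libraries, with 8 residual degrees of freedom, and adjusted over all genes tested. The SE was taken from the size of the log2 fold change and its F statistic (size over root F). With 3 libraries a group, the smallest p of an exact permutation test is 0.1. The code was tested on simulated data. No 2 libraries of a group agreed within counting noise.

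Exon lengths came from GENCODE M21 and gene positions from the deposited annotation columns. Members and gene lists were chosen with earlier results of these data known. Members given in every library were those called and 16 chosen from the list, with some members in both; of other lists, the most abundant and those with the smallest p were eligible. The 3 motifs reported are all that were searched. Alternatives were DESeq2 1.42.0, RLE factors, TMM without mitochondrial, haemoglobin and immunoglobulin genes, other filters, only the compared groups, a replicate block and leaving out each library. Removal of an exon length trend and of a pair of libraries was added after seeing the data. Figures used Python 3.11.15 and matplotlib 3.10.9.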

Additional observations from a re-analysis of the deposited data

How the results depend on the processing

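The count of 11 members lower in aged anti-PD-1 against control was 13 with DESeq2, 13 without a filter and 10 with RLE factors. It was 4 with only the compared groups. With library 3 of aged anti-PD-1 and library 1 of aged control left out together it was 2. Leaving out single libraries gave 2 to 12. Over all genes, the 1035 called lower became 373 with only the compared groups and 802 without that pair. With single libraries left out they became 303 to 1063. The 3 members higher in the combination against aged anti-PD-1 became 1 with only the compared groups, 1 with the length trend removed and 1 without that pair of libraries. With single libraries left out they became 0 to 5. Over all genes, the 866 called higher there became 737, 719 and 969 in the same order. With single libraries left out they became 127 to 1267. The 1 member lower in aged against young anti-PD-1 became 2 with DESeq2 and 2 with only the compared groups, and 1 to 2 with libraries left out (2 for library 1 of aged anti-PD-1 and libraries 1 and 2 of aged control). The 8 members that differed among the groups became 4 with the length trend removed, and 5 to 10 with libraries left out (5 for library 3 of aged anti-PD-1 and libraries 2 and 3 of the young group). In the combination against aged anti-PD-1, the median turned to -0.03 with library 3 of aged anti-PD-1 left out, alone or with its pair, and that of the longer 21 members from -0.07 to 0.07 with the length trend removed; no other of these medians and no called member changed direction. Over single libraries left out, the median ran from -0.52 to -0.23 for anti-PD-1 against control, from -0.23 to -0.01 for aged against young, from -0.03 to 0.21 for the combination against anti-PD-1 and from -0.33 to -0.15 for the combination against control. The normalizations tried moved the median of all genes by at most 0.0117. Apart from fewer samples or genes in a fit, the cause of these changes was not tested.

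The labels number the libraries 1 to 3 in each group. Residuals of same-numbered libraries had correlations from -0.17 to 0.17 over 18 pairs, with 2 above 0.1, so the numbers were not taken as pairs. With the number as a replicate block, 11 members were lower under anti-PD-1 against control, 10 of them shared, 3 were higher with the combination, 1 was lower in aged against young, and 10 differed among the groups.

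Every comparison among aged groups shares libraries with another. Strand-specific counting cannot be checked from gene counts, and 16 of 42 members have exons that overlap a gene on the opposite strand. Young mice on control antibody were not analysed here, so in the young group no effect of anti-PD-1 can be given.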
